A study of Homo sapiens with 4 samples.

Results

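Lysosomes digest material delivered by endocytosis and autophagy, and 43 genes that build them were followed here in LASCPC-01 cells, a neuroendocrine prostate cancer (NEPC) line, under PBS or under fluoxetine. The genes were taken by symbol from a fixed list, by a rule that uses no measured value. The list itself was chosen with earlier results of these data known. All 43 were found among the 16376 genes of the expression table, namely 13 subunits of the V-ATPase, 23 hydrolases or their helpers, 5 membrane proteins and the transcription factors TFEB and TFE3. None of them passed the test between the treatments, where only 0.237% of all genes tested did. For 41 of the 43 the 95% interval of the change lay within 1.5-fold in either direction. That was so for 79.6% of all genes tested, and for 93.9% of those with a mean of at least 1 FPKM.

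The V-ATPase is a rotary proton pump of the lysosomal membrane. Its V1 sector hydrolyses ATP on the cytosolic side and its V0 sector carries protons across the membrane, which gives the lumen the acid pH that the hydrolases need. TFEB and TFE3 are basic helix-loop-helix factors of the MiT/TFE family, held in the cytoplasm when mTORC1 is active at the lysosome, and in the nucleus they bind an E-box known as the CLEAR element in the promoters of many lysosomal genes. Fluoxetine is a selective serotonin reuptake inhibitor and a cationic amphiphilic amine, a class of drugs that enters acidic lysosomes and accumulates there.

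LASCPC-01 was made from human cells by combined expression of NMYC and activated AKT1, so every library carries both transgenes, although the labels give the genotype as WT. Total RNA was sequenced from 2 PBS libraries and 2 fluoxetine libraries, all labelled day 3. The labels give no dose, and the study's text gives 5 µM for 48 h. Only 1 line was used, and the labels do not say whether the libraries came from separate cultures, so p-values measure the spread between these libraries, which may be technical. The titles of the fluoxetine libraries carry the letters PP, while their treatment field reads fluoxetine. The neuroendocrine genes INSM1 (21.7 to 24.2 FPKM) and NCAM1 (44.3 to 52.0) and MYCN, the gene of the NMYC transgene (323 to 387), were high in all 4 libraries, as were the epithelial genes EPCAM (228 to 271) and KRT8 (412 to 475). By contrast, the neuroendocrine marker ENO2 was at 2.07 to 3.10 FPKM, SYP at 0.142 to 0.629 and CHGA at 0 to 0.0886. The luminal marker KLK3 (0.0302 to 0.256), the basal marker TP63 (up to 0.0326), the leukocyte marker PTPRC (up to 0.0318) and the endothelial marker PECAM1 (up to 0.0157) were near 0, whereas the fibroblast collagen COL1A1 was at 1.83 to 2.75 FPKM. In RNA of bulk cultures, fewer cells of a kind and less RNA per cell cannot be told apart. FPKM scales the fragments counted on a gene to gene length and library size, and is a scale on which genes can be compared per length. The depth solved from the table was 32873603 and 34756748 reads for PBS and 34806710 and 34831389 for fluoxetine, so 1 read on 1 kb of gene was worth 0.0287 to 0.0304 FPKM.

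The promoters are shown first, because the CLEAR element is what links the pathway to TFEB and TFE3. RefSeq promoters on GRCh38.p14, from 250 bases before to 50 bases after the start site, were found for 31 of the 43 genes, and not for ATP6V0E1, ATP6V1A, ATP6V1B2, ATP6V1C1, ATP6V1H, CTSB, HEXA, NAGLU, ARSA, SGSH, PSAP and LAMP2. They were searched on both strands for TCACGTG, the heart of the element, and for the full palindrome GTCACGTGAC, which contains it. The shorter motif was in 10 of the 31 promoters (32.3%) and in 3.71% of all 35116 promoters in the table. Of the 10250 tested genes with a promoter, 7.24% held it. The lines that follow give the bases just before the start site of 4 genes that hold it and of ATP6V1E1, which does not and which is described with the V1 genes. All are written 5′ to 3′ on the strand of the gene, with each TCACGTG or its reverse complement CACGTGA in capitals.
LAMP1, chr13:113297039-113297238, plus strand: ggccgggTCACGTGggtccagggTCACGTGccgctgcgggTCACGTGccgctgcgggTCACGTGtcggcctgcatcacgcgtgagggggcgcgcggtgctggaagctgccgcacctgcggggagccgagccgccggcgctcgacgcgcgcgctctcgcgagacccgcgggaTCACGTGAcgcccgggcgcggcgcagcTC
MCOLN1, chr19:7522524-7522623, plus strand: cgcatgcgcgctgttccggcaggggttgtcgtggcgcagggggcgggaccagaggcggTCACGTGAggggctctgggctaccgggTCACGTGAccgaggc
GAA, chr17:80101481-80101580, plus strand: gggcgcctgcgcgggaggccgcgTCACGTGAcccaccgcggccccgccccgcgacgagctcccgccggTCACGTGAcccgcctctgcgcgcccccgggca
ATP6V1G1, chr9:114587669-114587768, plus strand: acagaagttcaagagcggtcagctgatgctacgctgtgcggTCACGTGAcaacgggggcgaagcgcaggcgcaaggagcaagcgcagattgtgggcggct
ATP6V1E1, chr22:17628823-17628922, minus strand: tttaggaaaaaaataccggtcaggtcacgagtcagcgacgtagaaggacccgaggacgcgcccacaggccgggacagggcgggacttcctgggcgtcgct

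LAMP1 held 6 copies, the most among the 31 promoters, and the capitals that end its line begin the copy that crosses the start site. GAA and MCOLN1 held 2 copies each and ATP6V1G1 held 1. In these 3 promoters at least 1 copy was part of the full palindrome, which occurred in 0.353% of all promoters. The other 6 genes are shown by the copy nearest the start site with 10 bases on either side of its central CACGTG.
ATP6V0B, chr1:43974911-43974936, plus strand: accggcgcaTCACGTGggcgagttag
ATP6V0D1, chr16:67481201-67481226, minus strand: cccttatggTCACGTGAggcgcttgc
CTSA, chr20:45891300-45891325, plus strand: cgccggagtTCACGTGActcgtacac
CTSD, chr11:1763959-1763984, minus strand: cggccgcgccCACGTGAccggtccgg
CTSF, chr11:66568714-66568739, minus strand: atataacaagCACGTGAtagaggtca
NEU1, chr6:31862932-31862957, minus strand: gctgcgtgaTCACGTGggaggagatg

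The core began 59 bases before the start site in ATP6V0D1, 47 in CTSD, 123 in CTSF and 126 in NEU1. In ATP6V0B and CTSA, with 2 copies each, the nearest core began 39 and 25 bases before it. A match says only that these letters stand in the window.

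All 43 genes were expressed in both groups, and all passed the filter of a mean of at least 0.1 FPKM. Their mean level ran from 0.151 FPKM for CTSZ to 336 FPKM for ATP6V1F, with a median of 18.7 FPKM, against a median of 7.94 FPKM over the 12663 genes tested. In the plot of FPKM by library, the 4 symbols of most genes lie on top of each other, which shows that the levels differed far more between genes than between treatments.

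**Figure D1:**
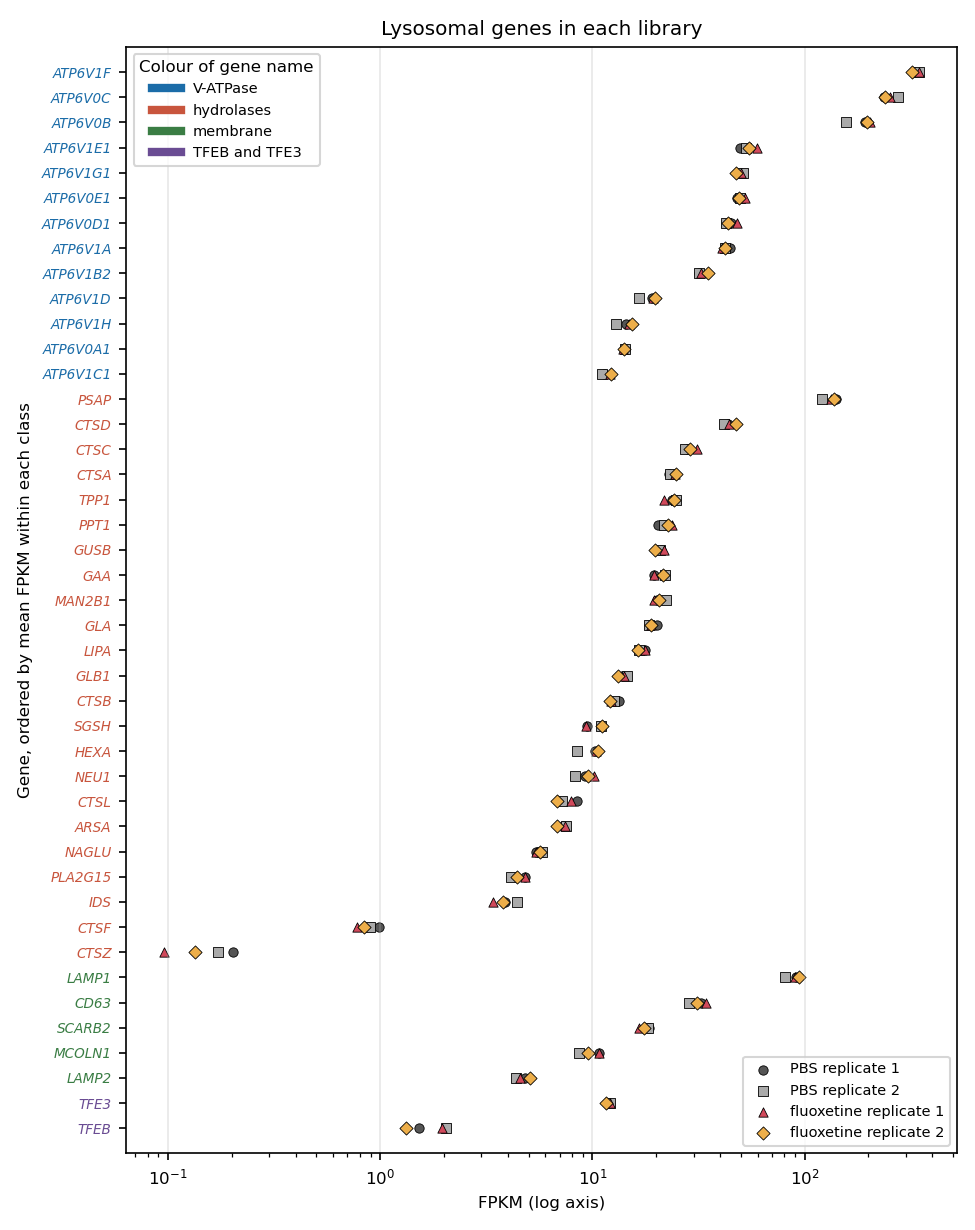
FPKM (log axis) of the 43 lysosomal genes in each of the 4 libraries, ordered by mean FPKM within each class. Symbols stand for single libraries, and the range over genes, from 0.0956 FPKM for CTSZ to 347 for ATP6V1F, is far wider than the spread of any gene.

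The comparison asks whether the genes of the lysosome moved under a drug that accumulates in it. With limma on log2(FPKM + 0.1) and Benjamini-Hochberg adjustment over all genes, 30 of the 12663 genes tested (0.237%) passed an adjusted p under 0.05, of which 3 (0.0237%) were higher and 27 (0.213%) lower in fluoxetine. No lysosomal gene was among them, 0 had an unadjusted p under 0.05 in limma, where 8.51% of all genes did, and the lowest adjusted p was 0.585. limma-voom on reads solved from the FPKM also called 0 of the 43, against 51 of 14035 genes. By limma-voom 2 of the 43 had an unadjusted p under 0.05, where 10.5% of all genes did. Fold changes were positive for 21 genes (48.8%) and negative for 22, where 43.5% of all genes tested were positive. Their median was -0.01 on the log2 scale for the 43, against -0.02 over all genes tested. The direction of each change is fluoxetine over PBS, and the pseudocount of 0.1 makes the changes of genes below about 1 FPKM look smaller than they are.

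Both fluoxetine libraries lay above both PBS libraries for 12 of the 43 genes (27.9%), against 16.7% of all genes tested. Both lay below for 6 (14.0%), against 24.8%, and the groups overlapped for the other 25. Of the 12 genes that were higher, 8 had their lowest value in PBS replicate 2. The lowest value of such a gene is in a PBS library by definition, so this count says little about that library. PBS replicate 2 held the lowest value for 16 of the 43 genes, and the same count over all genes was not made. Its part in the result was not tested beyond the fits that left it out, and the median of each of the 3 larger classes without it is given with the class.

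For most of these genes the interval of the change was narrow. The 95% interval lay within 1.25-fold for 33 of the 43 (76.7%), against 46.4% of all genes tested, and within 1.5-fold for 41 (95.3%), against 79.6%. Among genes with a mean of at least 1 FPKM, it lay within 1.5-fold for 41 of 41 lysosomal genes and for 93.9% of all. The exceptions were the cathepsins CTSZ and CTSF, the only members below 1 FPKM. In the plot of each gene's change, the bars of CTSZ and CTSF are the ones that pass a 1.5-fold line.

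**Figure D2:**
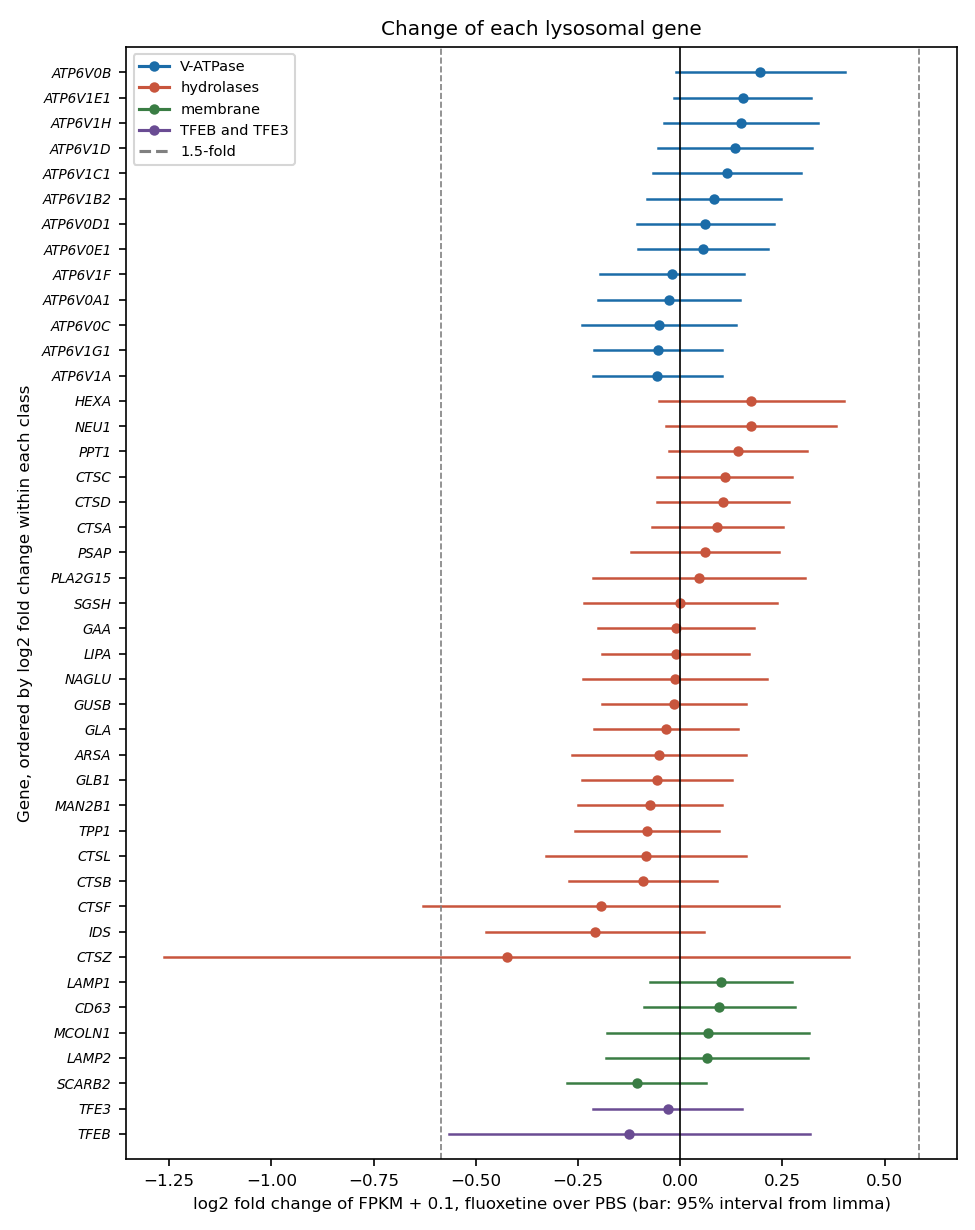
Log2 fold change of FPKM + 0.1, fluoxetine over PBS, for each of the 43 genes with its 95% interval from limma, by class. All 43 intervals cross 0, and 41 lie between the dashed lines at 1.5-fold.

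The V0 sector is the membrane part of the pump, and its genes ATP6V0C and ATP6V0B were among the 3 most expressed of the set. ATP6V0C encodes subunit c, which forms most of the proton-carrying ring, and measured 237 and 274 FPKM in PBS against 253 and 239.5 FPKM in fluoxetine. These values overlapped, with a log2 fold change of -0.05 (SE 0.09, limma adjusted p = 0.876). Without PBS replicate 2 the change of ATP6V0C was 0.05, so it has no fixed direction. ATP6V0B (chr1:43974487-43978295, plus strand, GRCh38), the gene for ring subunit c″, measured 193 and 157 FPKM in PBS and 203 and 196 FPKM in fluoxetine. PBS replicate 2 stood apart from the other 3 libraries here. The log2 fold change of ATP6V0B, 0.20 (SE 0.09, limma adjusted p = 0.585), was the largest of the 43, and its interval of -0.01 to 0.40 includes no change. Without PBS replicate 2 the ATP6V0B change was 0.05, and with the gene length trend removed it was 0.11.

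The other V0 genes were lower in level. ATP6V0D1, for the subunit that joins the ring to the central stalk, measured 45.0 and 42.7 FPKM in PBS against 48.1 and 43.5 in fluoxetine. ATP6V0E1, for the small subunit e, was at 47.9 and 49.5 FPKM in PBS and at 52.5 and 48.8 in fluoxetine. ATP6V0A1, for an isoform of the a subunit that lines the proton path, read 14.3 in both PBS libraries and 13.9 and 14.1 in the fluoxetine libraries. The ATP6V0D1 and ATP6V0E1 groups overlapped, and the ATP6V0A1 groups did not, at a log2 fold change of -0.03. Of the 5 V0 genes, 1 (20%) was higher and 1 (20%) lower in both fluoxetine libraries, against 16.7% and 24.8% of all genes tested.

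The V1 sector had 8 genes, of which 5 were higher in both fluoxetine libraries than in both PBS libraries and 0 lower, with a median log2 fold change of 0.10. As shares these are 62.5% and 0%, against 16.7% and 24.8% of all genes tested. ATP6V1F, for the small subunit F of the central stalk, had the highest level of all 43 genes, at 329 and 347 FPKM in PBS and 347 and 320.1 FPKM in fluoxetine. Its log2 fold change was -0.02 (SE 0.08, limma adjusted p = 0.961), and median centring of the libraries turned it to 0.0061. ATP6V1E1 (chr22:17592136-17628818, minus strand), the gene of the peripheral stalk subunit E, had a log2 fold change nearly equal to that of ATP6V1H, and the pair had the largest of the sector. It measured 49.8 and 53.1 FPKM in PBS against 59.9 and 54.5 FPKM in fluoxetine, and the groups did not overlap. The log2 fold change was 0.15 (SE 0.08, limma adjusted p = 0.598), with an interval of -0.01 to 0.32, and was 0.09 without fluoxetine replicate 1. With the gene length trend removed it was also 0.09.

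The catalytic and stalk genes next to these were nearly level. ATP6V1A encodes the ATP-hydrolysing subunit A and measured 44.5 and 42.1 FPKM in PBS and 41.0 and 42.3 in fluoxetine, a log2 fold change of -0.06 (SE 0.07, limma adjusted p = 0.829). ATP6V1G1, whose protein pairs with E in the peripheral stalks, was at 50.1 and 51.4 FPKM in PBS and 50.3 and 47.5 in fluoxetine, a log2 fold change of -0.05 (SE 0.07, limma adjusted p = 0.835). Its partner gene ATP6V1E1 thus differed in the opposite direction, and neither difference passed the test. ATP6V1B2, for the nucleotide-binding subunit B, measured 31.7 and 32.0 FPKM in PBS against 32.4 and 35.2 in fluoxetine. The groups of ATP6V1B2 did not overlap, as was so for the 3 genes that follow.

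ATP6V1C1, whose subunit C clamps V1 to V0, was at 11.3 and 11.2 FPKM in PBS and 12.1 and 12.2 in fluoxetine. For ATP6V1D, whose product is the rotor shaft, the PBS values were 19.0 and 16.6 FPKM and the fluoxetine values 19.3 and 19.8. For ATP6V1H, the regulatory subunit, they were 14.5 and 12.9 FPKM against 14.9 and 15.4. The log2 fold changes of these 3 genes were 0.11, 0.13 and 0.15. In ATP6V1D and ATP6V1H the PBS value that set the distance was that of replicate 2, since replicate 1 lay closer to the fluoxetine libraries than to replicate 2.

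Over the 13 V-ATPase genes the median log2 fold change was 0.06, with 8 (61.5%) positive and 5 negative, where 43.5% of all genes tested were positive. Of the 13, 6 (46.2%) were higher in both fluoxetine libraries and 1 (7.69%) lower, against 16.7% and 24.8% of all genes tested. That median was 0.05 without PBS replicate 2, 0.0049 without fluoxetine replicate 1 and 0.11 without fluoxetine replicate 2. No V-ATPase gene had an interval that reached 1.5-fold.

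Several V-ATPase subunits are encoded by more than 1 gene, and the share of each gene in the summed FPKM of its subunit was computed. Subunit a came mostly from TCIRG1, the a3 isoform of late endosomes and lysosomes, at 73.1% and 74.4% in PBS and 76.0% and 75.4% in fluoxetine. ATP6V0A1 held 12.2% and 11.1% in PBS and 11.2% and 10.8% in fluoxetine, so the listed a1 gene was a minor source. ATP6V0A4, the a4 isoform known from the kidney, held 10.1% in both PBS libraries and 8.64% and 8.66% in fluoxetine. The shares of TCIRG1 and ATP6V0A4 did not overlap between the groups, and those of ATP6V0A1 and ATP6V0A2 did. Subunit C came from ATP6V1C1 at 86.5% and 82.2% in PBS and at 88.0% and 89.2% in fluoxetine, the rest being ATP6V1C2. Subunit B was split between ATP6V1B2, at 61.3% ± 1.10 in PBS and 64.4% ± 2.66 in fluoxetine (SD, n = 2), and ATP6V1B1. The shares of subunit C did not overlap between the groups, nor did those of subunit B. In each of these subunits the 2 shares mirror each other and are a single comparison. With 2 libraries in each group an exact permutation test cannot give a two-sided p below 0.333, and the shares are given as a description, with no test.

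**Figure D3:**
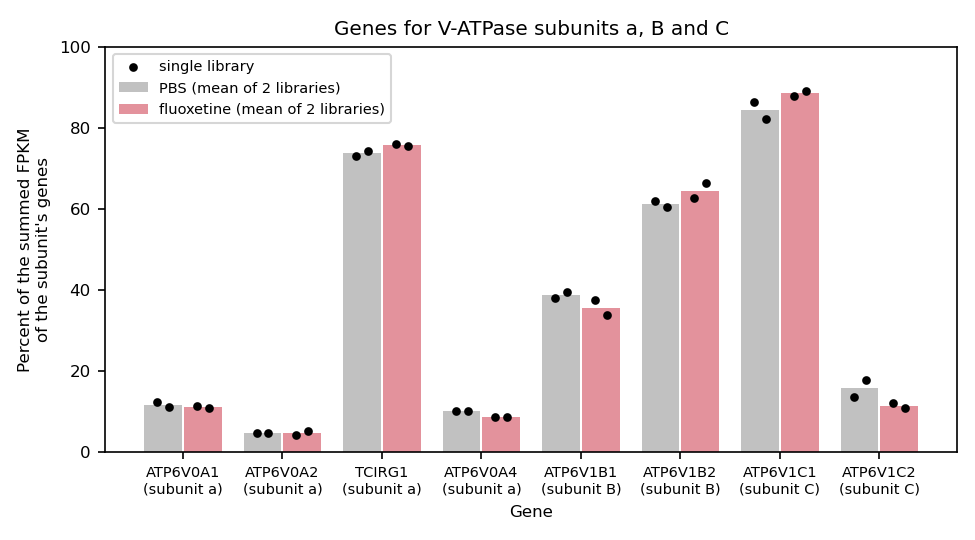
Percent of the summed FPKM of the genes for V-ATPase subunits a, B and C that each gene gave, as bars for the mean of 2 libraries and points for single libraries. TCIRG1 gave 73.1% to 76.0% of subunit a, and the order of the genes was alike in PBS and fluoxetine.

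The peptidases were 8 of the 23 hydrolase genes. CTSD encodes cathepsin D, an aspartic protease, and was the most abundant peptidase, at 43.5 and 41.6 FPKM in PBS and 44.1 and 47.5 FPKM in fluoxetine. The groups did not overlap, with a log2 fold change of 0.10 (SE 0.07, limma adjusted p = 0.674). CTSC, which activates granule proteases, and CTSA, which protects the sialidase and β-galactosidase, were placed likewise. CTSC was at 28.0 and 27.3 FPKM in PBS and 31.0 and 28.7 in fluoxetine, and CTSA at 23.1 and 23.3 FPKM in PBS and 24.6 and 24.7 in fluoxetine.

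The remaining peptidases had negative fold changes. CTSB, a cysteine protease, measured 13.3 and 12.7 FPKM in PBS and 12.3 and 12.1 in fluoxetine, a log2 fold change of -0.09. TPP1, a tripeptidyl peptidase, was at 23.7 and 24.7 FPKM in PBS and 21.7 and 24.2 in fluoxetine. CTSL, another cysteine protease, was at 8.43 and 7.22 FPKM in PBS and 7.96 and 6.80 in fluoxetine. The values of CTSB did not overlap, and those of TPP1 and CTSL did.

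CTSZ (chr20:58995185-59007247, minus strand), the gene of cathepsin Z, was close to the limit of detection. It measured 0.203 and 0.172 FPKM in PBS and 0.0956 and 0.134 FPKM in fluoxetine, which stood for 10 and 9 reads against 5 and 7. The log2 fold change of -0.42 (SE 0.38, limma adjusted p = 0.743) was the farthest from 0 of the 43, with an interval of -1.26 to 0.41. CTSF, the gene of cathepsin F, was at 0.986 and 0.891 FPKM in PBS and 0.781 and 0.835 in fluoxetine, on 57 to 68 reads. At this depth the intervals of both genes reached past 1.5-fold.

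Among the 8 glycosidases, HEXA and NEU1 were placed alike. HEXA encodes the α chain of β-hexosaminidase and measured 10.3 and 8.42 FPKM in PBS against 10.4 and 10.6 FPKM in fluoxetine, a log2 fold change of 0.17 (SE 0.10, limma adjusted p = 0.624). NEU1 encodes the lysosomal sialidase and measured 9.18 and 8.26 FPKM in PBS against 10.2 and 9.49 FPKM in fluoxetine, a log2 fold change of 0.17 (SE 0.10, limma adjusted p = 0.613). In both genes PBS replicate 2 was the lowest library, and without it the changes were 0.03 and 0.10.

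The other 6 glycosidases overlapped between the groups. GAA, the acid α-glucosidase that degrades glycogen, was at 19.5 and 22.0 FPKM in PBS and 19.6 and 21.6 in fluoxetine, a log2 fold change of -0.01. GLA, the α-galactosidase, was at 20.3 and 18.4 FPKM in PBS and 18.8 and 19.0 in fluoxetine. GLB1, the β-galactosidase, was at 13.8 and 14.5 FPKM in PBS and 14.1 and 13.1 in fluoxetine. In GAA replicate 1 was the lower library under both treatments, and so it was for NAGLU, for the enzyme that removes N-acetylglucosamine from heparan sulfate, at 5.40 and 5.80 FPKM in PBS and 5.42 and 5.68 in fluoxetine. GUSB, the β-glucuronidase, was at 21.1 and 20.8 FPKM in PBS and 21.9 and 19.7 in fluoxetine. MAN2B1, the α-mannosidase, was at 20.2 and 22.1 FPKM in PBS and 19.6 and 20.5 in fluoxetine.

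The 3 sulfatases were expressed at a lower level than most glycosidases. IDS, the iduronate sulfatase, measured 3.89 and 4.41 FPKM in PBS and 3.39 and 3.77 FPKM in fluoxetine, which did not overlap. The log2 fold change of IDS was -0.21 (SE 0.12, limma adjusted p = 0.623), and -0.12 without PBS replicate 2. SGSH, the heparan N-sulfatase, was at 9.47 and 11.0 FPKM in PBS and 9.37 and 11.1 in fluoxetine, and ARSA, arylsulfatase A, was at 7.24 and 7.47 FPKM in PBS and 7.43 and 6.77 in fluoxetine. Reads of IDS may be shared with its pseudogene copy, and those of ATP6V0C, CTSL and GUSB with related copies, so the split of reads in these 4 genes is uncertain.

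The lipid enzymes and the activator precursor differed little. PPT1, which removes palmitate from proteins, measured 20.3 and 21.7 FPKM in PBS and 23.6 and 22.8 in fluoxetine, without overlap and with a log2 fold change of 0.14. LIPA, the acid lipase that frees cholesterol from its esters, was at 17.7 and 16.6 FPKM in PBS and 17.7 and 16.4 in fluoxetine. PLA2G15, the lysosomal phospholipase A2, which cationic amphiphilic drugs are known to inhibit as an enzyme, was at 4.83 and 4.14 FPKM in PBS and 4.83 and 4.41 in fluoxetine. Neither LIPA nor PLA2G15 was apart between the groups. PSAP encodes the precursor of the saposins, which present sphingolipids to their hydrolases, and was the most abundant of the 23, at 141 and 121 FPKM in PBS and 134 and 138 FPKM in fluoxetine. PSAP had a log2 fold change of 0.06 (SE 0.08, limma adjusted p = 0.839), which turned to -0.05 without PBS replicate 2.

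Over the 23 hydrolases the median log2 fold change was -0.01, with 9 (39.1%) positive and 14 negative, where 43.5% of all genes tested were positive. Of the 23, 6 (26.1%) were higher and 4 (17.4%) lower in both fluoxetine libraries, against 16.7% and 24.8% of all genes tested. The median was -0.08 for peptidases, -0.01 for glycosidases, -0.05 for sulfatases and 0.05 for the lipid enzymes. The class median was -0.03 without PBS replicate 2 and 0.02 without fluoxetine replicate 2.

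The membrane class holds proteins of the lysosomal limiting membrane. LAMP1 (chr13:113297241-113323672, plus strand), whose product is a main glycoprotein of that membrane, measured 91.6 and 80.5 FPKM in PBS and 90.0 and 94.2 FPKM in fluoxetine. Its log2 fold change was 0.10 (SE 0.08, limma adjusted p = 0.709), and its promoter is the one shown earlier with 6 copies of the motif. LAMP2, needed for fusion of autophagosomes and for chaperone-mediated autophagy, was much lower, at 4.81 and 4.37 FPKM in PBS and 4.57 and 5.06 FPKM in fluoxetine. For LAMP2 the log2 fold change was 0.07 (SE 0.11, limma adjusted p = 0.878). Neither gene was apart between the groups, and without PBS replicate 2 the change was 0.0077 for LAMP1 and -0.0017 for LAMP2.

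CD63, a tetraspanin of late endosomes, measured 32.4 and 28.7 FPKM in PBS and 34.2 and 31.1 FPKM in fluoxetine, a log2 fold change of 0.10 (SE 0.08, limma adjusted p = 0.736) that was 0.0080 without PBS replicate 2. SCARB2, the receptor that carries glucocerebrosidase to the lysosome, was the only one of the 5 without overlap, at 18.4 and 18.3 FPKM in PBS and 16.6 and 17.5 FPKM in fluoxetine. Its log2 fold change was -0.11 (SE 0.08, limma adjusted p = 0.683). MCOLN1, the calcium channel TRPML1 whose current activates calcineurin and through it TFEB, measured 10.8 and 8.60 FPKM in PBS and 10.7 and 9.53 FPKM in fluoxetine. Its groups overlapped, with a log2 fold change of 0.07 (SE 0.11, limma adjusted p = 0.876) that turned to -0.09 without PBS replicate 2.

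The median of the 5 membrane genes was 0.07, with 4 (80%) positive and 1 negative, where 43.5% of all genes tested were positive. That median was -0.0017 without PBS replicate 2 and 0.18 without PBS replicate 1. With 2 PBS libraries, these fits move the change of each gene by equal amounts in opposite directions. A cause was not tested. The plot of deviations by library is drawn from the same values. There the membrane genes had a median deviation of 0.04 in PBS replicate 1 and -0.14 in PBS replicate 2, against 0.02 and -0.01 in the fluoxetine libraries.

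**Figure D4:**
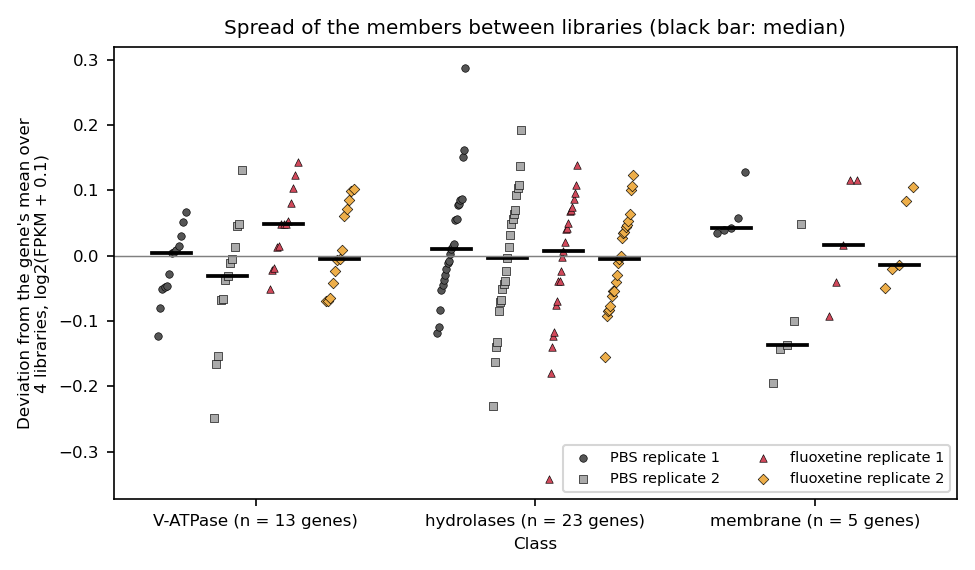
Deviation of each gene from its mean over the 4 libraries, in log2(FPKM + 0.1), for the 3 larger classes, with points for genes and black bars for the median. The V-ATPase medians lie between -0.03 and 0.05, the hydrolase medians within 0.01 of 0, and the membrane genes are lowest in PBS replicate 2, at -0.14.

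The factors themselves were measured as RNA only, and their control is largely by phosphorylation and location, which RNA does not show. TFE3 (chrX:49028726-49043486, minus strand) was the more abundant, at 12.0 and 12.2 FPKM in PBS and 12.1 and 11.6 FPKM in fluoxetine, a log2 fold change of -0.03 (SE 0.08, limma adjusted p = 0.938). TFEB (chr6:41683978-41736259, minus strand) measured 1.52 and 2.04 FPKM in PBS and 1.95 and 1.33 FPKM in fluoxetine, on 172 and 244 reads against 233 and 159. Its log2 fold change was -0.12 (SE 0.20, limma adjusted p = 0.871), with an interval of -0.57 to 0.32. Both groups of both genes overlapped. TFEB differed more within each treatment than between treatments, and its change ran from -0.38 to 0.14 when each library was left out in turn.

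The genes with the motif were set beside those without. The 10 genes that hold TCACGTG had a median log2 fold change of 0.08, with a range of -0.19 for CTSF to 0.20 for ATP6V0B. Of the 10, 7 were positive, where 43.5% of all genes tested were. The 21 genes with a promoter and no match had a median of -0.03. Over all tested genes with a promoter, the 742 that hold the motif had a median of -0.02 and the whole 10250 a median of -0.02. None of the 10 passed the test, and 2 of the 742 did. The 3 lysosomal genes that hold the full palindrome had a median of -0.01, with 1 positive. The 28 with a promoter and no palindrome had a median of -0.02. Genes with no promoter entry are in neither comparison, and a link between motif and change was not tested.

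Other genes of the same pathway, from a list of 81, gave 77 tested genes and 0 calls in limma, with 5 (6.49%) at an unadjusted p under 0.05 against 8.51% of all genes tested. Their median log2 fold change was -0.02. Of these 77, 12 (15.6%) were higher and 18 (23.4%) lower in both fluoxetine libraries, against 16.7% and 24.8% of all genes tested. ATP6V1G3, GALC and IDUA did not reach the filter and TFEC was not analysed here. Genes with the lowest unadjusted p are named for each group.

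Among 12 tested genes for other V-ATPase subunits and accessory proteins, ATP6V0D2, for the alternative d subunit known from osteoclasts, ATP6V1C2 and ATP6V0A4 came first. ATP6V0D2 measured 0.167 and 0.0850 FPKM in PBS and 0.376 and 0.254 FPKM in fluoxetine, on 13 and 7 reads against 31 and 21, a log2 fold change of 0.89 (SE 0.37, limma adjusted p = 0.552). It made up at most 0.775% of subunit d, the rest being ATP6V0D1. ATP6V1C2, the alternative C subunit, was at 1.76 and 2.42 FPKM in PBS and 1.65 and 1.48 FPKM in fluoxetine, a log2 fold change of -0.38 (SE 0.18, limma adjusted p = 0.579). ATP6V0A4 was at 11.9 and 12.9 FPKM in PBS and 10.7 and 11.2 FPKM in fluoxetine, a log2 fold change of -0.18 (SE 0.09, limma adjusted p = 0.592). The change of ATP6V1C2 was -0.16 without PBS replicate 2 and -0.60 without PBS replicate 1, and that of ATP6V0A4 was -0.12 without PBS replicate 2. In this group 1 gene (8.33%) was higher and 4 (33.3%) were lower in both fluoxetine libraries, against 16.7% and 24.8% of all genes tested.

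Of 26 tested genes for other hydrolases, 2 (7.69%) were higher and 8 (30.8%) lower in both fluoxetine libraries, against 16.7% and 24.8% of all genes tested, with a median log2 fold change of -0.07. CTSO, a cysteine cathepsin, measured 0.576 and 0.565 FPKM in PBS and 0.297 and 0.396 FPKM in fluoxetine, a log2 fold change of -0.60 (SE 0.27, limma adjusted p = 0.566). FUCA1, the α-fucosidase, was at 5.74 and 5.05 FPKM in PBS and 4.72 and 4.61 FPKM in fluoxetine, a log2 fold change of -0.20 (SE 0.11, limma adjusted p = 0.613) that was -0.11 without PBS replicate 1. The sphingolipid enzymes SMPD1 and ASAH1, whose proteins are lost from lysosomes under cationic amphiphilic drugs, were chosen after their values were seen. SMPD1 RNA was at 5.70 FPKM in both PBS libraries and 5.23 and 5.54 FPKM in fluoxetine, and ASAH1 was at 26.3 and 25.2 FPKM in PBS and 26.2 and 27.1 FPKM in fluoxetine, with log2 fold changes of -0.08 and 0.05 that did not pass the test.

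Of 24 genes for other membrane and sorting proteins, 7 (29.2%) were higher and 5 (20.8%) lower in both fluoxetine libraries, against 16.7% and 24.8% of all genes tested. NAGPA, the enzyme that uncovers the mannose 6-phosphate tag of hydrolases, had the lowest unadjusted p of all the lysosomal genes examined. It measured 2.76 and 2.81 FPKM in PBS and 3.73 and 3.76 FPKM in fluoxetine, a log2 fold change of 0.41 (SE 0.12, limma adjusted p = 0.368). ABCA2, a lipid transporter, was at 6.08 and 6.91 FPKM in PBS and 4.80 and 5.78 FPKM in fluoxetine, a log2 fold change of -0.29 (SE 0.12, limma adjusted p = 0.541) that was -0.16 without fluoxetine replicate 1. CTNS, the cystine exporter, was at 6.01 and 5.85 FPKM in PBS and 6.90 and 6.63 FPKM in fluoxetine, a log2 fold change of 0.19 (SE 0.10, limma adjusted p = 0.604). The NAGPA change stayed between 0.33 and 0.48 over all the settings tried, and it passed the adjusted threshold in none of them. The cholesterol transporters NPC1 and NPC2 had log2 fold changes of -0.12 and 0.04, and were also chosen after their values were seen.

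The last group held the MiT/TFE factor MITF and the proteins that tie mTORC1 to the lysosome, with 15 genes tested and a median log2 fold change of 0.03. Of these, 2 (13.3%) were higher and 1 (6.67%) lower in both fluoxetine libraries, against 16.7% and 24.8% of all genes tested. LAMTOR2, LAMTOR5 and LAMTOR1, with the lowest unadjusted p of the group, are parts of the Ragulator complex that anchors the Rag GTPases. The other Ragulator genes LAMTOR3 and LAMTOR4 had log2 fold changes of -0.10 and 0.10, and the groups of both overlapped. LAMTOR2 measured 73.7 and 58.5 FPKM in PBS and 82.2 and 74.6 FPKM in fluoxetine, a log2 fold change of 0.25 (SE 0.10, limma adjusted p = 0.538). LAMTOR5 was at 77.2 and 65.0 FPKM in PBS and 84.5 and 77.4 FPKM in fluoxetine, a log2 fold change of 0.19 (SE 0.09, limma adjusted p = 0.579). LAMTOR1 was at 63.8 and 56.9 FPKM in PBS and 66.1 and 62.5 FPKM in fluoxetine, a log2 fold change of 0.09 (SE 0.08, limma adjusted p = 0.720). In LAMTOR2, LAMTOR5 and LAMTOR1 PBS replicate 2 was the lowest library, and without it the changes were 0.09, 0.07 and 0.01. With the gene length trend removed and all libraries kept, they were 0.13, 0.07 and 0.01.

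The plot of change against level places the 43 genes in the band of all genes tested. Their median absolute log2 fold change was 0.08, against 0.10 over all genes.

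**Figure D5:**
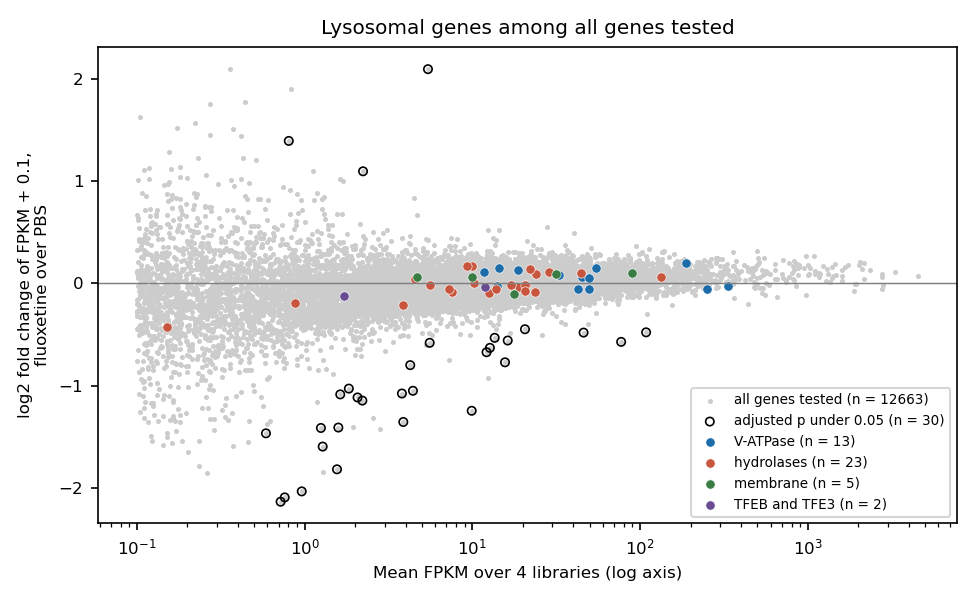
Log2 fold change of FPKM + 0.1, fluoxetine over PBS, against mean FPKM (log axis) for the 12663 genes tested, with the 30 called genes ringed and the lysosomal genes coloured by class. The lysosomal genes lie between -0.42 and 0.20, and none is ringed.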

How the data were processed

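Total RNA of 2 PBS-treated and 2 fluoxetine-treated LASCPC-01 libraries was sequenced. The authors deposited 1 FPKM value per gene and library, and their processing notes name fastp, HISAT2, HTSeq and GRCh38. The gene annotation was not given in the sources used here, and the labels and methods name different library kits. The study's methods name a test that needs counts, so limma 3.58.1 in R 4.3.3 was run on log2(FPKM + 0.1) instead, by lmFit and by eBayes with its trend option. The filter was a mean of 0.1 FPKM or more, and p-values were adjusted by Benjamini-Hochberg over all genes kept. The fit was also run on simulated data with the spreads shuffled across genes, so that run could not check the trend option.

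Whole reads were solved from the FPKM for 15998 of the 16080 genes above 0, within 0.004 of a whole number, and the depth came from GENCODE 29 exon lengths. The replicates of a group differed by more than the sampling of reads, with a chi-square per degree of freedom of 8.57 in PBS and 10.5 in fluoxetine. That does not show whether they came from separate cultures or RNA. True reads of a gene can be multiples of those given. Gene locations are from GENCODE 29 on GRCh38, and promoters are from RefSeq on GRCh38.p14. The plots used matplotlib 3.10.9, and the tables Python 3.11.15, pandas 2.3.3, numpy 2.4.6 and scipy 1.17.1.

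The genes and lists were chosen with earlier results of these data known. In each class the 2 genes with the highest mean, the 2 largest and the 2 smallest log2 fold changes, and TFEB, TFE3 and MCOLN1, were given in full, and of each wider list the 3 genes with the smallest unadjusted p. Values of 3 genes, 1 of them from these lists and 2 of them markers, are not reported here. The alternatives tried were other pseudocounts (1 and 0.01), other filters (none, or 1 FPKM), TPM, quantile normalization, median centring, no variance trend, the replicate number as a block and leaving out each library. Removal of the trend on gene length (lowess, span 0.3) and limma-voom on the solved reads of genes with at least 10 reads were added after seeing the data. Intervals from limma cover the spread between libraries. The trend option draws the variance of each gene toward that of genes at a similar level, so interval width partly reflects level.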

Additional observations from a re-analysis of the deposited data

How the results depend on the processing

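The count of lysosomal genes called was 0 under every alternative that kept all libraries. In these fits by limma or limma-voom, 0 to 2 of the 43 reached an unadjusted p under 0.05, against 6.65% to 11.1% of all genes tested. Over all genes the count of 30 calls moved to 0 without a filter on low values (1069 at an unadjusted p under 0.05 in limma), 16 with quantile normalization, 0 without the variance trend (933 at an unadjusted p under 0.05 in limma), 51 with limma-voom, and 2 to 12 when each library was left out. Labels number the libraries 1 and 2 in each group. How far a library lay from the mean of its group correlated at 0.0351 between libraries of the same number. With 2 libraries in each group, this value cannot decide whether same-numbered libraries shared a culture or preparation, which was not tested. A fit with the replicate number as a block called 64 genes, with 0 of the 43 among them, where the lowest adjusted p among the 43 was 0.346.

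The median log2 fold change of the V-ATPase ranged from 0.0049 to 0.11 over the fits that left out a library, that of the hydrolases from -0.026 to 0.015, and that of the membrane genes from -0.0017 to 0.18. Rescaling to TPM shifted the median of all genes to -0.07, that of the V-ATPase to 0.014 and that of the hydrolases to -0.060. The V-ATPase median was 0.021 with the length trend removed, and the hydrolase median 0.014 with median centring. TPM and median centring each rescale whole libraries, so genes well above the pseudocount shift nearly alike under them. The cause of the other shifts was not tested. Of the named genes, ATP6V1F turned from -0.02 to 0.0061 with median centring. Leaving out a library also turned the sign of ATP6V0C (-0.16 to 0.054), ATP6V1F (-0.079 to 0.038), LAMP2 (-0.0066 to 0.14), MCOLN1 (-0.094 to 0.23), PSAP (-0.049 to 0.17), TFE3 (-0.063 to 0.0030) and TFEB (-0.38 to 0.14). The other 337 values of named genes under settings that kept all libraries had the direction given. CTSZ, CTSF, CTSO and ATP6V0D2 have no value at a minimum of 1 FPKM. With 2 libraries in each group and 32873603 to 34831389 reads a library, the intervals of CTSZ and CTSF reached past 1.5-fold. The deviations of fluoxetine replicate 1 had a correlation of -0.28 with log2 gene length, over genes, and removing the length trend gave 21 calls.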
